A study of Mus musculus with 9 samples.

Results

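Metallothioneins and zinc transporters set how much zinc a cell holds and how much of it is free. Mt1 and Mt2 encode small cysteine-rich proteins that bind zinc and copper and take up oxidants. Slc39a14, which encodes ZIP14, brings zinc, manganese and iron into the cytosol, and Slc30a1, which encodes ZnT1, exports zinc across the plasma membrane. Metallothionein genes and Slc30a1 are classic targets of the zinc-sensing factor MTF1, and Mt1, Mt2 and Slc39a14 are also known as acute-phase genes that respond to interleukin-6 and, for the metallothioneins, to glucocorticoids. These 4 genes were taken by name and are 4 of the 23747 genes in the deposited tables.

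Single-nucleus RNA sequencing (sNuc-seq) had been performed on hearts of C57BL/6 mice aged 8 weeks, with 3 mice in each of 3 groups and 9 mice in all. The sham group was given vehicle by gavage for 7 days and was operated on with no ligation. The I/R group was given the same vehicle for 7 days, then the left anterior descending coronary artery was tied for 30 min and the heart was reperfused for 24 h. The SBP group had the same operation and reperfusion after 7 days of gavage with Shexiang Baoxin Pill, a traditional Chinese medicine that the sample labels call MUSKARDIA. The study took tissue from below the ligation, and 24 h is the only time after injury. Each library was 1 heart, and the sex of the mice was not stated in the sources used here.

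The 9 libraries held 49171 nuclei, 4576 to 6418 per mouse, and 10329520 to 18205985 UMIs (unique molecular identifiers, each standing for 1 captured RNA molecule) per mouse. Clusters named from marker genes gave cardiomyocytes, endothelial cells, fibroblasts, myeloid cells and T cells in every mouse. A total of 290 barcodes occurred in 2 libraries each. Libraries of the same group were not alike. Nuclei of an Ankrd1-led cluster made up 22.0% of cardiomyocytes in I/R mouse 1 against 99.9% and 96.5% in I/R mice 2 and 3, 82.8% to 99.3% in the SBP mice and 6.68% to 14.7% in the sham mice. I/R mouse 1 also had the highest shares of the 9 mice of a Tnc-led cluster in fibroblasts (31.8%) and of a Gpnmb-led cluster in myeloid cells (83.5%). Levels are given as CPM, the UMIs of a gene scaled to the same total for the cell type in each mouse, with further scaling between mice by trimmed means (TMM) unless stated otherwise. Fold changes are on the log2(CPM + 1) scale, which understates changes of low genes.

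Over all libraries Mt1 had 30103 UMIs, Mt2 9612, Slc39a14 21726 and Slc30a1 528. Per kilobase of gene these were 24160 UMIs for Mt1, 10621 for Mt2, 453 for Slc39a14 and 81.5 for Slc30a1. The order per length thus ran from Mt1 down to Slc30a1, but by UMIs alone Slc39a14 came before Mt2. A UMI counts a captured molecule whatever the length of its gene, so the values per length do not rank expression. Summed over the 9 mice, Slc30a1 had the fewest UMIs of the 4 in every cell type. In endothelial nuclei of sham mice 1 to 3, Mt2 had fewer, at 13, 6 and 25 UMIs against 17, 19 and 27.

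In the GENCODE vM21 annotation of GRCm38, Mt2 (ENSMUSG00000031762, chr8:94172664-94173568, + strand) and Mt1 (ENSMUSG00000031765, chr8:94179082-94180327, + strand) lie 5513 bases apart with 0 annotated genes between them. Both are short protein-coding genes with at most 3 exons in a coding transcript. No stretch of 30 bases is shared between the transcripts of Mt1 and Mt2, so reads of the pair can be told apart by sequence. Slc39a14 (ENSMUSG00000022094) covers chr14:70303469-70351425 on the - strand with up to 10 exons, and Slc30a1 (ENSMUSG00000037434) covers chr1:191906767-191913247 on the + strand with 2 exons. Mt2 is overlapped on the other strand by Gm45774, which had 30 UMIs in all, and Slc30a1 by 1700034H15Rik, which had 191.

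The upstream sequences are shown because MTF1 is known to act through metal response elements next to these genes. They are from RefSeq, GRCm38.p6, read 5′ to 3′ on the gene's strand up to the base before the first annotated transcript start, and capitals mark each match to the core of that element, TGCACNC or TGCGCNC on either strand. The windows are chr8:94178839-94179081 for Mt1, chr8:94172368-94172617 for Mt2 and chr1:191906531-191906766 for Slc30a1, all on the + strand.
Mt1: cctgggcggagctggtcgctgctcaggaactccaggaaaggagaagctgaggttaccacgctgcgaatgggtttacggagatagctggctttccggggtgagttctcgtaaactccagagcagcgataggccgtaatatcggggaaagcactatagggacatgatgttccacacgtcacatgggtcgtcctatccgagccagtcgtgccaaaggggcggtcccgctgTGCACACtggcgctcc
Mt2: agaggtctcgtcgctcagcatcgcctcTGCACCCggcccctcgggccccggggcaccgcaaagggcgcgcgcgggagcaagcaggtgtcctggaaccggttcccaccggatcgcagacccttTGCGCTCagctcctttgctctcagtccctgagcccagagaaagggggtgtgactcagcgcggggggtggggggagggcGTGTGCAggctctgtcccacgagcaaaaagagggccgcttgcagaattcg
Slc30a1: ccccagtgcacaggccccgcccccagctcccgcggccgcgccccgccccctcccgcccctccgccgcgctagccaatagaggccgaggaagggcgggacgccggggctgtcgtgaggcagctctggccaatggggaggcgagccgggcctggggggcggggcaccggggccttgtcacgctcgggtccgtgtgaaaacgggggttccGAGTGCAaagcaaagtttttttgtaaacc

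The Mt2 window held 3 matches, the Mt1 window 1 and the Slc30a1 window 1. Each window ended before the first annotated start, so any elements beyond it, such as before a later start, were not counted. The counts therefore do not rank the genes by their elements. Of 32851 mouse promoters in windows of 250 bases, 21.4% held at least 1 match and 1.26% at least 3. The glucocorticoid response element and the STAT letters TTCNNNGAA had 0 matches in the 3 windows, and were found in 0.0365% and 7.02% of all promoters. A match here is a match of letters and was not a measurement of binding.

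Slc39a14, the zinc importer, rose in fibroblasts after I/R. In fibroblasts of sham mice 1 to 3 its level was 84.5, 51.6 and 60.7 CPM. In I/R mice 1 to 3 it was 224, 803 and 345 CPM, and in SBP mice 1 to 3 it was 291, 199 and 224 CPM. Every injured heart lay above every sham heart, while the I/R and SBP ranges overlapped. The change from sham to I/R was 2.61 on the log2 scale (SE 0.40, 95% interval 1.71 to 3.51), a 6.09-fold rise, with an adjusted p of 0.00374 (limma, Benjamini-Hochberg over all genes, n = 3 per group), where 10.5% of all genes tested in fibroblasts were called. From sham to SBP Slc39a14 rose by 1.86 (95% interval 0.96 to 2.76, limma adjusted p = 0.0284), where 5.31% of genes were called. This second call was lost without sham 2, sham 3, I/R 3 or any 1 SBP mouse (1.70 to 2.00, limma adjusted p = 0.0501 to 0.0839) and with mice of the same number as a block (adjusted p = 0.0756).

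Fibroblasts fell into a Tnc-led cluster, whose leading genes include the matrix genes Postn and Col1a2, and a larger Lvrn-led cluster. The Tnc-led cluster made up 8.28% to 31.8% of fibroblasts in I/R mice and 8.38% to 19.7% in SBP mice, against 0.134% to 0.251% in sham mice. Pooled over mice and with no TMM scaling, as in all values per cluster and marker list, Slc39a14 was at 824 CPM in Tnc-led and 263 CPM in Lvrn-led nuclei of I/R hearts, and at 612 and 108 CPM in SBP hearts. Sham hearts had 62.9 CPM in Lvrn-led nuclei and only 8 Tnc-led nuclei, in which 0 UMIs were counted. Slc39a14 was thus highest in a cluster nearly absent from sham hearts. With the Lvrn-led cluster alone, a comparison added after seeing the data, the rise was 1.82 in I/R (limma adjusted p = 0.0871) and 0.76 in SBP (limma adjusted p = 0.525), both short of the threshold.

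In myeloid nuclei Slc39a14 was at 68.2, 33.1 and 35.6 CPM in sham mice 1 to 3, at 68.2, 265 and 124 CPM in I/R mice and at 125, 108 and 161 CPM in SBP mice. I/R mouse 1 was level with sham mouse 1, and the other injured hearts were above both. The I/R change of 1.58 (SE 0.46) passed the test with a limma adjusted p of 0.0431, where 17.6% of genes in myeloid nuclei were called. It rested on single libraries, since leaving out any of sham 2, sham 3, I/R 2, I/R 3 or an SBP mouse gave values of 1.06 to 1.60 with limma adjusted p of 0.0607 to 0.134, and the Cd163-led cluster alone, the one myeloid cluster well filled in sham hearts, gave 1.05 (adjusted p = 0.422). The SBP change against sham was 1.56 (limma adjusted p = 0.0542), where 12.7% of genes were called, and it passed without sham 1, I/R 1 or I/R 2 (1.55 to 1.88, adjusted p = 0.00684 to 0.0449) and with total UMIs only, no filter, only the 2 groups compared or top-scoring doublets removed (1.55 to 1.61, adjusted p = 0.00157 to 0.0478).

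In endothelial nuclei Slc39a14 was at 70.6, 44.3 and 65.7 CPM in sham mice, 97.9, 316 and 163 CPM in I/R mice, and 107, 87.1 and 82.8 CPM in SBP mice. All injured hearts were above the sham hearts here too. The I/R change of 1.52 (95% interval 0.74 to 2.31) had a limma adjusted p of 0.0501, where 2.98% of genes were called, and the SBP change against sham was 0.63 (limma adjusted p = 0.436), where 1.91% were called. Without I/R mouse 1 the I/R change was 1.93 with an adjusted p of 0.0061, and without SBP mouse 1 it was 1.54 with an adjusted p of 0.0468. With all mice it was 1.51 to 1.55 and passed under median-of-ratios scaling, total UMIs only, pseudocount 0.5 or Leiden resolution 0.6 (adjusted p = 0.0474 to 0.0497).

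In cardiomyocytes Slc39a14 was at 162, 75.5 and 133 CPM in sham mice 1 to 3, at 138, 185 and 142 CPM in I/R mice and at 152, 115 and 158 CPM in SBP mice. The 3 groups overlapped, and the I/R change was 0.38 (95% interval -0.19 to 0.95, limma adjusted p = 0.546), where 0.814% of genes were called. In cardiomyocytes the SBP change against sham was 0.25 (limma adjusted p = 0.710), where 0.132% were called.

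**Figure D1:**
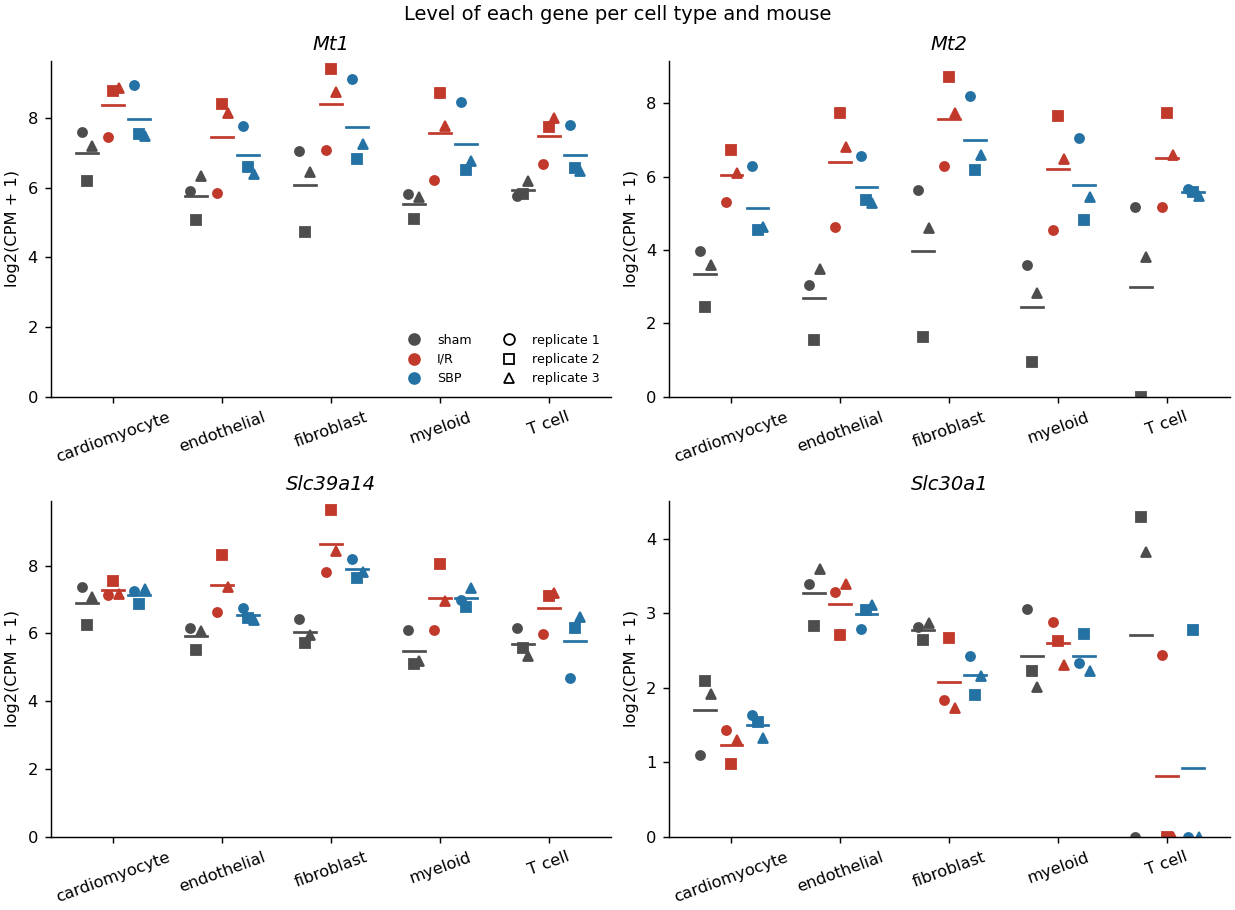
Level of Mt1, Mt2, Slc39a14 and Slc30a1 on the log2(CPM + 1) scale (y axis) in 5 cell types (x axis), with 1 point per mouse, symbols for the replicate number and a bar at the mean of each group of 3. Slc39a14 in fibroblasts separates sham (51.6 to 84.5 CPM) from I/R (224 to 803 CPM) and SBP (199 to 291 CPM), while in cardiomyocytes the 3 groups overlap.

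The difference between cell types was itself tested, within mice, for Mt1, Mt2 and Slc39a14 in 6 pairs of types and for Slc30a1, too sparse to test in myeloid nuclei, in the 3 pairs of the other types. For I/R against sham, 3 of these tests passed, all for Slc39a14. Its change in cardiomyocytes was smaller than in fibroblasts by 2.23 log2 units (SE 0.32, 95% interval of cardiomyocyte minus fibroblast -2.93 to -1.52, limma adjusted p = 0.00998), where 1.83% of genes were called. This held in all 12 alternatives run for it, which were pseudocount 5, total UMIs only, mice of the same number as a block and leaving out each of the 9 mice. Other clusters, the Lvrn-led cluster alone, other naming of cell types and doublet removal were not run for it. The change in fibroblasts also exceeded that in myeloid nuclei by 1.03 (limma adjusted p = 0.0315, 6.71% called), and endothelial minus fibroblast gave -1.08 (limma adjusted p = 0.0443, 0.593% called). These last values passed in 5 and 2 of the 12 alternatives. The first was lost without any 1 sham or I/R mouse (0.91 to 1.13, adjusted p = 0.0556 to 0.0990) and the second without any 1 of the 9 mice (-1.15 to -0.97, adjusted p = 0.0502 to 0.163). Cardiomyocyte minus endothelial gave -1.14 (limma adjusted p = 0.246, 0.0264% called), cardiomyocyte minus myeloid -1.19 (limma adjusted p = 0.0764, 4.62% called) and endothelial minus myeloid -0.05 (limma adjusted p = 0.928, 3.16% called). For SBP against sham, 2 tests passed, again for Slc39a14 against fibroblasts, cardiomyocyte minus fibroblast at -1.60 (limma adjusted p = 0.0361, 1.65% called) and endothelial minus fibroblast at -1.23 (limma adjusted p = 0.0358, 0.322% called). The former was lost without any 1 sham or SBP mouse or I/R mouse 3 (-1.76 to -1.48, adjusted p = 0.0526 to 0.132), the latter without any 1 of the 9 mice (-1.33 to -1.11, adjusted p = 0.0513 to 0.162). Mt1 and Mt2 gave no call in any pair, and Slc30a1 none in its 3 pairs.

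Mt2, the metallothionein with the lower level, had the largest fold changes of the 4 genes against sham in each cell type where it was tested. In endothelial nuclei it was at 7.28, 1.94 and 10.3 CPM in sham mice 1 to 3, 23.9, 211 and 110.2 CPM in I/R mice and 93.0, 39.9 and 38.0 CPM in SBP mice. Each injured heart was above each sham heart. Mt2 rose by 3.69 after I/R (SE 0.77, 95% interval 1.95 to 5.43, limma adjusted p = 0.0378), 12.9-fold. The call was lost without any of sham 1, 2 or 3, I/R 2, I/R 3 or SBP 3, with changes of 3.02 to 4.08 and limma adjusted p of 0.0506 to 0.106.

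In myeloid nuclei Mt2 was at 11.1, 0.919 and 6.07 CPM in sham mice, which rest on 6, 1 and 8 UMIs. It was at 22.2, 201 and 88.1 CPM in I/R mice and at 133, 27.1 and 42.7 CPM in SBP mice, again with no overlap between sham and the injured hearts. Mt2 rose by 3.77 after I/R (SE 0.96, limma adjusted p = 0.0299). Without sham 2, sham 3, I/R 2 or I/R 3 the change was 3.00 to 3.95 with limma adjusted p of 0.0602 to 0.0904, and without the Gpnmb-led myeloid cluster, which made up 2.98% to 6.31% of myeloid nuclei in sham and 49.8% to 83.5% in I/R mice, it was 4.19 with an adjusted p of 0.147.

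In fibroblasts Mt2 was at 48.9, 2.09 and 23.4 CPM in sham mice, 76.9, 420.3 and 214 CPM in I/R mice and 293, 71.3 and 95.8 CPM in SBP mice. The I/R change of 3.62 (95% interval 1.30 to 5.95) had a limma adjusted p of 0.0568. In cardiomyocytes Mt2 was at 14.8, 4.41 and 11.1 CPM in sham mice, 39.0, 105 and 68.3 CPM in I/R mice and 77.0, 22.5 and 23.7 CPM in SBP mice. There the change was 2.71 (95% interval 1.51 to 3.92, limma adjusted p = 0.0563). Neither cell type had a sham mouse as high as any I/R mouse, and sham mouse 2 was lowest in both. The fibroblast change passed without sham 1 (4.46, adjusted p = 0.0368) or SBP 1 (3.62, adjusted p = 0.0497) and with pseudocount 5 (3.15, adjusted p = 0.0454), and the cardiomyocyte change without I/R 1 (3.08, adjusted p = 0.0162) or SBP 1 (2.72, adjusted p = 0.0299).

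Mt2 changes of SBP against sham were 1.82 in cardiomyocytes, 3.03 in endothelial nuclei, 3.03 in fibroblasts and 3.32 in myeloid nuclei, with limma adjusted p of 0.0575 to 0.206. None passed, while those in endothelial and myeloid nuclei passed without I/R 1 or I/R 2 (3.03 to 3.32, adjusted p = 0.0229 to 0.0440) or with only the 2 groups compared (adjusted p = 0.0222 and 0.0300), and the myeloid change also with top-scoring doublets removed (adjusted p = 0.0477). Over all nuclei of a mouse, where fewer cells of a type and less RNA per cell cannot be told apart, Mt2 was at 22.4, 3.16 and 13.9 CPM in sham mice, 40.3, 217 and 112 CPM in I/R mice and 144, 37.9 and 48.5 CPM in SBP mice. Its rise of 3.15 after I/R passed (limma adjusted p = 0.0309), where 10.8% of genes were called, and was lost without sham 2, sham 3 or I/R 2 (2.43 to 3.35, adjusted p = 0.0811 to 0.105). The SBP change against sham was 2.53 (limma adjusted p = 0.0951), where 2.97% were called, and passed with only the 2 groups compared (2.53, adjusted p = 0.0487).

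Mt1, the most abundant of the 4 genes, did not pass the test in any cell type. In cardiomyocytes it was at 192, 71.7 and 146 CPM in sham mice, 176, 442 and 462 CPM in I/R mice and 499, 184 and 177 CPM in SBP mice. I/R mouse 1 lay within the sham range, and SBP mouse 1 was the highest of the 9. The Mt1 difference between I/R and sham was 1.38 (95% interval 0.24 to 2.51, limma adjusted p = 0.267).

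Mt1 in fibroblasts was at 132, 25.5 and 87.0 CPM in sham mice, 135, 677 and 427 CPM in I/R mice and 562, 112 and 152 CPM in SBP mice. I/R mouse 1 was again close to the highest sham mouse. The I/R change was 2.33 (95% interval 0.49 to 4.18, limma adjusted p = 0.108). It was 1.70 in endothelial nuclei (adjusted p = 0.222), 2.03 in myeloid nuclei (adjusted p = 0.0771) and 1.55 in T cells (adjusted p = 0.374, 3 to 23 UMIs per mouse, 0.455% of genes called), all by limma. In T cells 0.398% of genes were called for SBP against sham, Mt1 not among them, and Mt2, Slc39a14 and Slc30a1 were too sparse there to test. Without I/R mouse 1 the Mt1 change passed in endothelial nuclei (2.51, adjusted p = 0.0200), in myeloid nuclei (2.69, adjusted p = 0.0135) and over all nuclei (2.08, adjusted p = 0.0431), and without SBP mouse 1 it passed in myeloid nuclei (2.03, adjusted p = 0.0478). Changes of SBP against sham in Mt1 were 1.00 in cardiomyocytes, 1.16 in endothelial nuclei, 1.66 in fibroblasts and 1.71 in myeloid nuclei, with limma adjusted p of 0.142 to 0.449.

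Slc30a1, the zinc exporter, passed no test between groups. It was at 6.06, 5.23 and 6.32 CPM in fibroblasts of sham mice, 2.56, 5.36 and 2.32 CPM in I/R mice and 4.38, 2.75 and 3.49 CPM in SBP mice. I/R mouse 2 was within the sham range and the other injured hearts were below it. The I/R change was -0.70 (95% interval -1.39 to -0.01, limma adjusted p = 0.188), on 10 to 20 UMIs per mouse. In endothelial nuclei, where Slc30a1 was at 9.52, 6.15 and 11.1 CPM in sham, 8.73, 5.56 and 9.57 CPM in I/R and 5.95, 7.26 and 7.67 CPM in SBP mice, the I/R change was -0.14 (95% interval -0.78 to 0.49). In cardiomyocytes it was -0.47 (95% interval -1.13 to 0.20). Myeloid nuclei had 4 to 30 UMIs per mouse, below the filter for a test.

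The comparison of SBP with I/R asks whether the drug alters the injured heart. By limma 0 of 20 tests of the 4 genes passed, 1 had an unadjusted p under 0.05, and the counts by limma with voom weights were again 0 and 1. Over all genes 0% were called in each cell type, with 279 of 12899 genes in cardiomyocytes, 619 of 12225 in endothelial nuclei, 466 of 13174 in fibroblasts, 426 of 10754 in myeloid nuclei, 83 of 1757 in T cells and 697 of 16044 over all nuclei at an unadjusted p under 0.05. Values of the 4 genes were lower in SBP in 18 of the 20 tests, which share libraries, and 6 of these 18 turned to higher when 1 mouse was left out.

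The test with the low unadjusted p was Slc39a14 in endothelial nuclei, where SBP minus I/R was -0.90 (95% interval -1.68 to -0.11, limma adjusted p = 0.967). Slc39a14 gave -0.75 in fibroblasts (95% interval -1.65 to 0.15), -0.13 in cardiomyocytes (-0.70 to 0.44) and -0.01 in myeloid nuclei (-1.04 to 1.02). For Mt2 the values were -0.90 in cardiomyocytes (95% interval -2.10 to 0.30), -0.66 in endothelial nuclei (-2.40 to 1.08), -0.59 in fibroblasts (-2.91 to 1.73) and -0.45 in myeloid nuclei (-2.65 to 1.75). For Mt1 they were -0.38 in cardiomyocytes (95% interval -1.51 to 0.75), -0.54 in endothelial nuclei (-2.03 to 0.95), -0.67 in fibroblasts (-2.52 to 1.17) and -0.32 in myeloid nuclei (-1.88 to 1.24). Slc30a1 gave 0.27 in cardiomyocytes, -0.15 in endothelial nuclei and 0.09 in fibroblasts, with intervals from -0.78 to 0.93. Every metallothionein interval held 0, and in endothelial nuclei and fibroblasts they ran from -2.91 to 1.73.

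**Figure D2:**
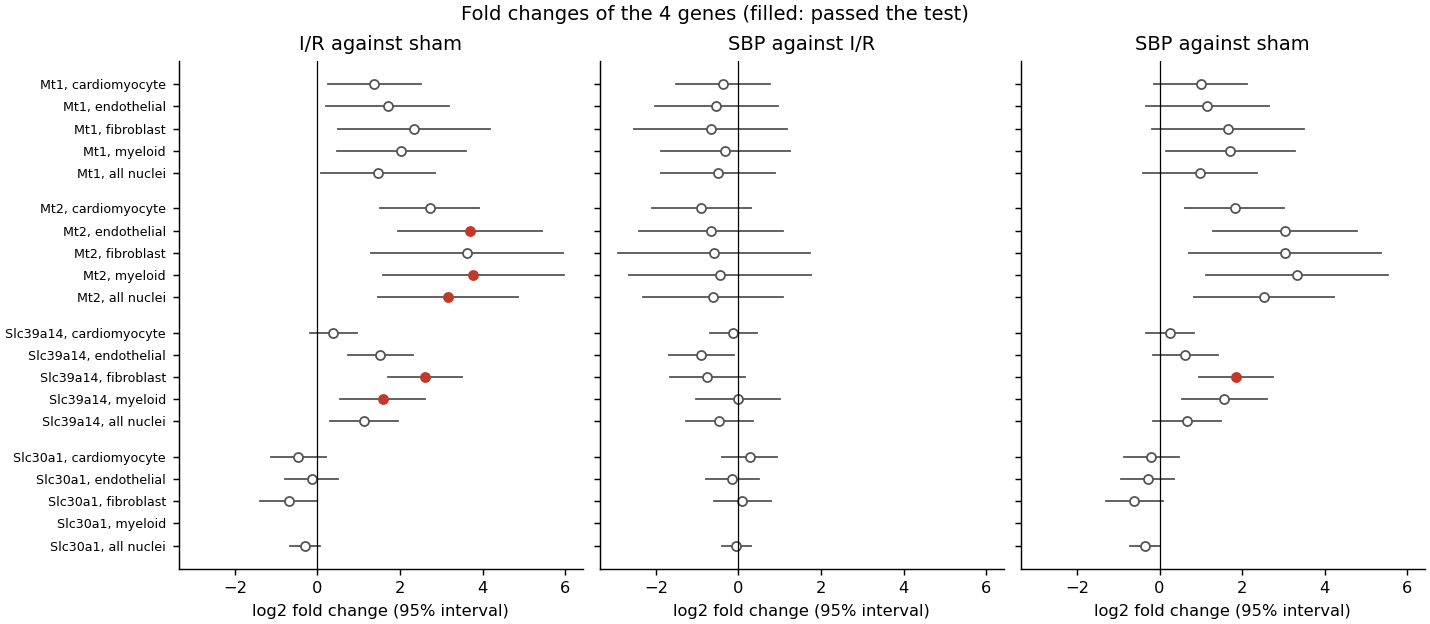
Log2 fold changes (x axis) of the 4 genes in 4 cell types and in all nuclei (y axis) for I/R against sham, SBP against I/R and SBP against sham, with 95% intervals from limma; filled points passed the test. The 5 filled points of I/R against sham are Mt2 and Slc39a14, the only one of SBP against sham is Slc39a14 in fibroblasts, and SBP against I/R has none.

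Neutrophil markers in sum, like Mt2, were higher in every injured heart than in every sham heart in cardiomyocytes, endothelial nuclei, fibroblasts and myeloid nuclei. The summed level of 5 neutrophil markers (S100a8, S100a9, Csf3r, Retnlg and Cxcr2) in endothelial nuclei was 12.2 to 42.3 CPM in sham, 108 to 400.4 CPM in I/R and 79.2 to 174 CPM in SBP mice. In fibroblasts it was 10.4 to 39.6, 64.1 to 270 and 46.1 to 119 CPM in the same order, and in myeloid nuclei it was 100.1 to 138, 414 to 897 and 266 to 326 CPM. In cardiomyocytes it was 4.63 to 12.7, 27.9 to 126 and 20.1 to 47.5 CPM in that order. In these types 0 of the 5 markers were at 0 in any I/R mouse, and at most 2 in any sham mouse. In myeloid nuclei every I/R sum was above every SBP sum. Mt2 there was at 22.2, 201 and 88.1 CPM in I/R mice and at 133, 27.1 and 42.7 CPM in SBP mice. The myeloid class includes neutrophils, so the sum there need not be RNA from other cells. Fibroblast nuclei also held cardiomyocyte markers, at 4534 to 5696 CPM over 6 genes in sham and 1534 to 2465 CPM in I/R mice. The part of RNA from other cells in the Mt1, Mt2 and Slc39a14 results was not tested.

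The level of each gene over cell types was ordered within the 9 mice, on the log2(CPM + 1) scale with no TMM scaling, and neighbours were compared by a two-sided exact sign-flip permutation test (smallest p 0.00391). Slc30a1 was highest in endothelial nuclei, at 7.96 CPM ± 1.94 (SD, n = 9), and among the 4 larger cell types lowest in cardiomyocytes, at 1.88 ± 0.81. T cells, at 4.60 CPM ± 6.69 on 0 to 2 UMIs per mouse, were too sparse to place. Endothelial exceeded myeloid levels in 9 of 9 mice (exact adjusted p = 0.0208) and fibroblasts exceeded cardiomyocytes in 9 of 9 (exact adjusted p = 0.0208). The latter order turned round per nucleus, where the difference was -0.12, since cardiomyocyte nuclei held more UMIs. Mt2 was highest in fibroblasts, at 139 CPM ± 142, above T cells in 9 of 9 mice (exact adjusted p = 0.0208). T cells held only 0 to 11 Mt2 UMIs per mouse, and fibroblasts were not tested against the other types. The other neighbours for Mt2 did not differ beyond their spread in CPM. Per nucleus, cardiomyocyte minus myeloid was 1.58 (9 of 9 mice) and endothelial minus cardiomyocyte -1.66 (0 of 9 mice), each with an exact adjusted p of 0.0104.

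Mt1 was at 260 CPM ± 158 in cardiomyocytes and 257 ± 236 in fibroblasts, a difference that did not pass (exact adjusted p = 0.271). Per nucleus cardiomyocytes exceeded fibroblasts by 1.70 in 9 of 9 mice (exact adjusted p = 0.0104). In CPM fibroblasts exceeded myeloid nuclei in 8 of 9 mice (exact adjusted p = 0.0469). For Slc39a14 no neighbours passed. The order in sham hearts alone put cardiomyocytes first, at 124 CPM ± 38.7 against 64.3 ± 16.7 in fibroblasts (SD, n = 3), whereas in I/R hearts fibroblasts were first at 465 ± 310 against 158 ± 31.0 in cardiomyocytes. Under cell types from marker scores 0 of the 16 neighbouring pairs passed, against 4 here.

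The ratio of Mt1 to Mt2 UMIs separated sham from injured hearts in the 4 main cell types. In cardiomyocytes there were 13.0, 16.3 and 13.2 Mt1 UMIs per Mt2 UMI in sham mice 1 to 3, 4.51, 4.22 and 6.76 in I/R mice and 6.48, 8.18 and 7.46 in SBP mice. In endothelial nuclei the ratio was 8.08, 17.0 and 7.72 in sham, 2.37, 1.60 and 2.58 in I/R and 2.34, 2.42 and 2.20 in SBP mice. I/R mouse 1, which was close to sham in its Mt1 level, was in the range of the injured hearts by this ratio.

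In fibroblasts the ratio was 2.69, 12.2 and 3.72 in sham, 1.75, 1.61 and 2.00 in I/R and 1.92, 1.57 and 1.58 in SBP mice. In myeloid nuclei it was 5.00, 36.0 and 8.63 in sham, on few Mt2 UMIs, and 2.09 to 3.35 in the injured hearts. In each of the 4 types the sham range did not overlap that of I/R or of SBP, and each exact permutation test gave p = 0.1, the smallest that 3 against 3 mice allow (adjusted over 12 tests, p = 0.15). I/R and SBP overlapped in all 4 types, with exact p of 0.2 to 0.9. The 4 types come from the same mice and are not separate tests, and other gene pairs were not compared. Endothelial nuclei held cardiomyocyte markers at 7209 to 9004 CPM in sham, 2859 to 5069 in I/R and 2564 to 3570 in SBP mice. In myeloid nuclei these were 5717 to 6721, 1679 to 2767 and 1836 to 2382 CPM. The part of RNA from other cells in the ratios was not tested. Between types, the ratio in cardiomyocytes exceeded that in fibroblasts in 9 of 9 mice, by 1.71 on the log2 scale (exact sign-flip p = 0.00391, adjusted p = 0.0117 over 6 pairs).

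**Figure D3:**
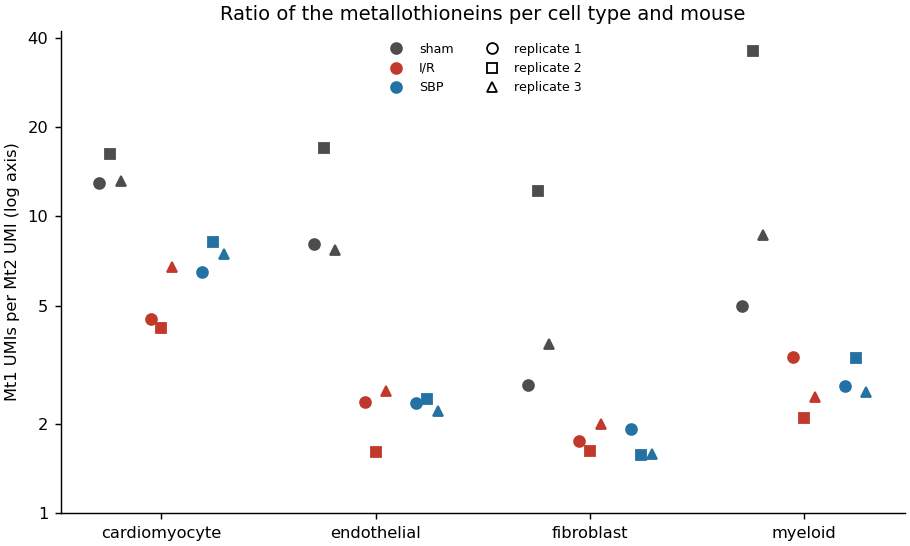
Mt1 UMIs per Mt2 UMI (y axis, log scale) in 4 cell types (x axis), 1 point per mouse, with colours for the group and symbols for the replicate number. All sham points lie above all I/R and SBP points of the same cell type, from 13.0 to 16.3 against 4.22 to 8.18 in cardiomyocytes.

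The share of nuclei with at least 1 UMI was compared at equal depth. Each nucleus was thinned to 1000 UMIs, which left out 2287 sham, 1694 I/R and 1711 SBP nuclei below that depth. In fibroblasts Slc39a14 was found in 5.98% ± 1.41 of sham, 22.5% ± 12.0 of I/R and 12.6% ± 2.83 of SBP nuclei (SD, n = 3). Mt2 was found in 2.14% ± 2.03, 17.3% ± 11.7 and 10.4% ± 8.01 of fibroblasts, and Mt1 in 6.45% ± 3.84, 26.9% ± 15.6 and 16.7% ± 12.1. Before thinning the mean shares were 10.5%, 35.0% and 22.0% for Slc39a14, 3.51%, 29.7% and 17.9% for Mt2 and 10.4%, 41.8% and 26.4% for Mt1. The Slc39a14 and Mt2 shares did not overlap between sham and either injured group, with an exact permutation p of 0.1, the smallest possible. How many of all genes separate in this way was not computed, so this was not read as particular to these genes.

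In cardiomyocytes Mt1 was in 13.6% ± 5.22 of sham and 29.4% ± 12.9 of I/R nuclei, Slc39a14 in 11.1% ± 3.29 and 13.5% ± 2.64, and Slc30a1 in at most 0.421% of nuclei of any sham mouse. In endothelial nuclei Slc39a14 was in 5.99% ± 1.11 of sham, 15.3% ± 7.23 of I/R and 8.11% ± 0.411 of SBP nuclei, and here SBP lay below I/R without overlap (exact permutation p = 0.1). Before thinning those means were 8.19%, 20.8% and 12.3%, and the SBP range (11.4% to 13.2%) overlapped that of I/R (12.5% to 30.5%), as it did when thinned to 500 UMIs (exact permutation p = 0.3). In fibroblasts the Slc39a14 shares of SBP and I/R overlapped after thinning (exact permutation p = 0.2) and did not before it (exact permutation p = 0.1). Free RNA in the droplets also gives UMIs. The cardiomyocyte gene Myh6 was found in 82.5% ± 4.57 of sham and 54.3% ± 21.1 of I/R endothelial nuclei, and the fibroblast gene Dcn in 8.36% ± 1.03 of sham and 13.0% (8.66% to 18.2% over mice) of I/R cardiomyocytes. The neutrophil gene S100a8 was found in 0.791% ± 0.399 of sham and 6.69% ± 7.51 of I/R endothelial nuclei. Median UMIs per mouse were 1088 to 1367 in endothelial and 3174 to 5715 in cardiomyocyte nuclei before thinning. In endothelial nuclei and fibroblasts the mean share of each of the 4 genes was below that of Myh6 in every group, and in cardiomyocytes those of Mt2 and Slc30a1 were below that of Dcn. These shares were therefore not read as expression in single nuclei.

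Endothelial clusters differed in the pooled level of Slc39a14. In a Reln- and Mmrn1-led cluster it was at 88.6 CPM in sham, 522 CPM in I/R and 237 CPM in SBP hearts, pooled over mice. In the larger Mcf2l-led cluster it was at 72.4, 198 and 100.4 CPM, and in the cluster led by Tmem108 and Npr3 at 31.7, 88.4 and 49.8 CPM. The levels of single mice in the Reln-led cluster ran from 47.8 to 141 CPM in sham, 276 to 775 CPM in I/R and 187 to 326 CPM in SBP hearts. Clusters were described and not tested.

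Mt2 was at 133 CPM in Mcf2l-led, 97.3 CPM in Tmem108-led and 94.0 CPM in Reln-led nuclei of I/R hearts, pooled over mice, against 6.94, 4.48 and 7.70 CPM in sham hearts, the last 2 on 12 and 4 UMIs. Its levels in single I/R mice ran from 33.4 to 241, 10.6 to 172 and 8.90 to 205 CPM in these clusters, so their ranges overlapped. In myeloid cells of I/R mice 1 to 3 Mt2 was at 23.8, 221 and 95.7 CPM in Cd163-led and at 22.4, 183 and 85.1 CPM in Gpnmb-led nuclei. In SBP mice the values were 142, 34.4 and 30.3 CPM and 121, 24.9 and 54.7 CPM. In fibroblasts of I/R mice Mt2 was at 132, 573 and 314 CPM in Tnc-led and at 38.9, 347 and 191 CPM in Lvrn-led nuclei, higher in the Tnc-led cluster in each of the 3 mice.

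Cardiomyocytes split at a finer resolution into the Ankrd1-led cluster, which also has Fstl4 and Myh7 among its leading genes, and the rest. In I/R hearts Mt1 was at 465 CPM and Mt2 at 88.6 CPM in Ankrd1-led nuclei, pooled over mice. This pool held 236, 944 and 1199 nuclei of I/R mice 1 to 3, so a difference between clusters cannot be told apart from a difference between mice. The other cardiomyocytes of I/R hearts came from mouse 1 (837 nuclei), with Mt1 at 109 CPM and Mt2 at 16.2 CPM, and from mouse 3 (43 nuclei), with 353 and 75.8 CPM, near the Ankrd1-led values. In sham hearts the pooled values were 205 and 23.8 CPM in Ankrd1-led nuclei and 131 and 9.04 CPM in the others. Slc39a14 was at 166 CPM in Ankrd1-led nuclei of I/R hearts and at 119.5 and 155 CPM in the others of mice 1 and 3.

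**Figure D4:**
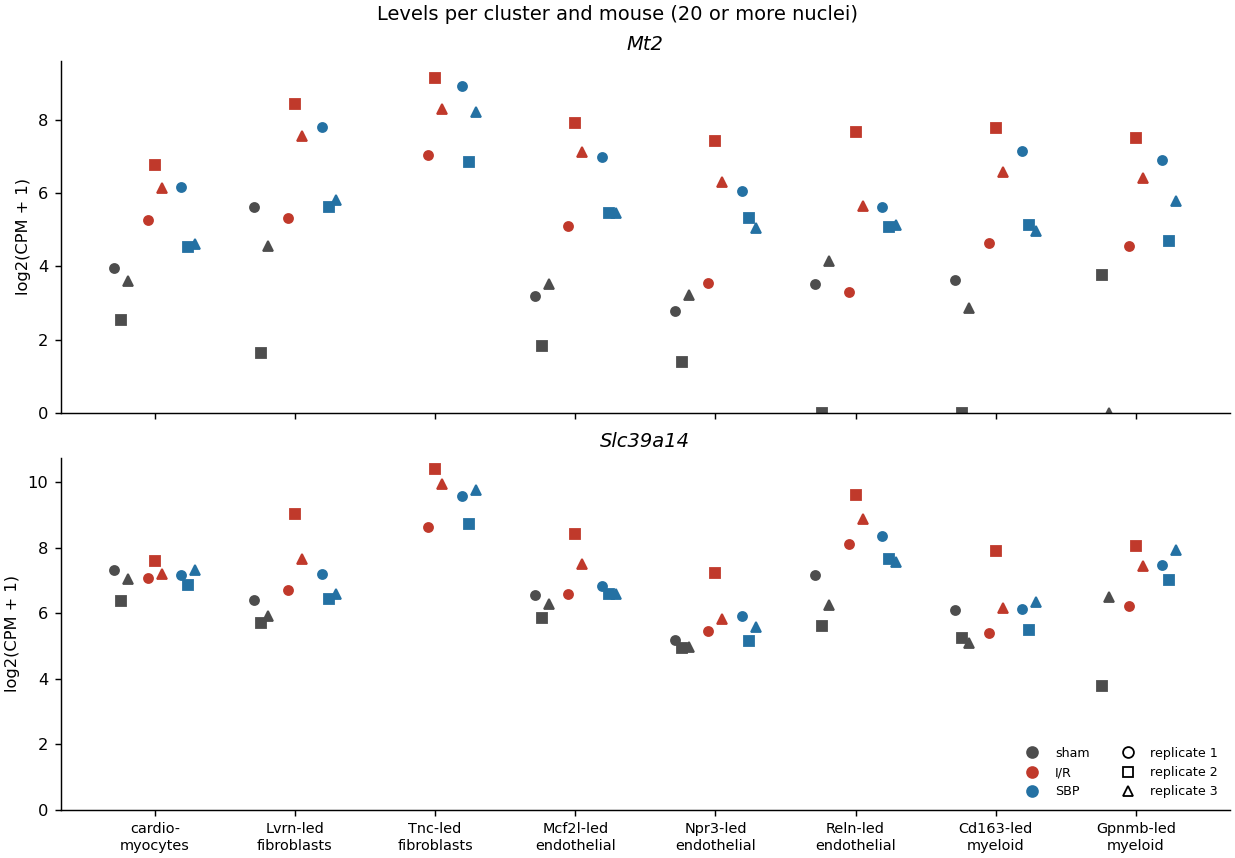
Level of Mt2 (top) and Slc39a14 (bottom) on the log2(CPM + 1) scale with no TMM scaling (y axis) in 8 clusters (x axis), 1 point per mouse with at least 20 nuclei in the cluster. Slc39a14 is highest in Tnc-led fibroblasts, where no sham mouse had enough nuclei, and in the Reln-led endothelial cluster of I/R hearts.

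Other members of these gene families were taken from lists by family. Of 4 metallothionein genes listed, only Mt1 and Mt2 passed the filter. None of the SLC30 exporters was called after I/R (0 of 6 tested in cardiomyocytes, endothelial nuclei and fibroblasts, 0 of 5 in myeloid nuclei), beside 0.814%, 2.98%, 10.5% and 17.6% of all genes in that order of types, so that few calls would be reached at the background share. The list had median log2 changes from -0.15 in cardiomyocytes to 0.05 in myeloid nuclei, and the medians over all genes were -0.03 to 0.03.

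Of the 14 SLC39 importers, 3 of 10 tested rose in fibroblasts and 3 of 11 in myeloid nuclei after I/R, beside 10.5% and 17.6% of all genes called in these types, while 0 of 10 were called in cardiomyocytes and 0 of 10 in endothelial nuclei, beside 0.814% and 2.98%. The myeloid count is near the background share. Both counts of 3 include Slc39a14, which was chosen with earlier results of these data known. They were therefore not read as a rise of the importer family. The list median was 0.43 in fibroblasts and 0.45 in myeloid nuclei. Beside Slc39a14 these were Slc39a1, a plasma membrane zinc importer, with changes of 0.87 in fibroblasts (limma adjusted p = 0.0144) and 1.21 in myeloid nuclei (adjusted p = 0.0262), Slc39a13 with 0.66 in fibroblasts (adjusted p = 0.0325) and Slc39a11 with 0.62 in myeloid nuclei (adjusted p = 0.0378). For SBP against sham 2 of 10 importers in fibroblasts and 2 of 11 in myeloid nuclei passed, all higher, beside 5.31% and 12.7% of all genes, to which the myeloid count is again near. The fibroblast count again includes Slc39a14.

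Of 11 genes of metal sensing and copper handling, 10 were tested in each of the 4 types. After I/R 1 of the 10 was called in endothelial nuclei, where 2.98% of all genes were called, and 0 of 10 in cardiomyocytes (0.814%), fibroblasts (10.5%) and myeloid nuclei (17.6%). The 1 was Cox17, a copper chaperone for cytochrome oxidase, with a log2 change of -0.77 (limma adjusted p = 0.0456). Mtf1, the zinc-sensing factor, was at 16.2 to 34.4 CPM on average in sham and 17.5 to 36.6 CPM in I/R hearts, with changes between -0.24 and 0.10 in the 4 types.

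**Figure D5:**
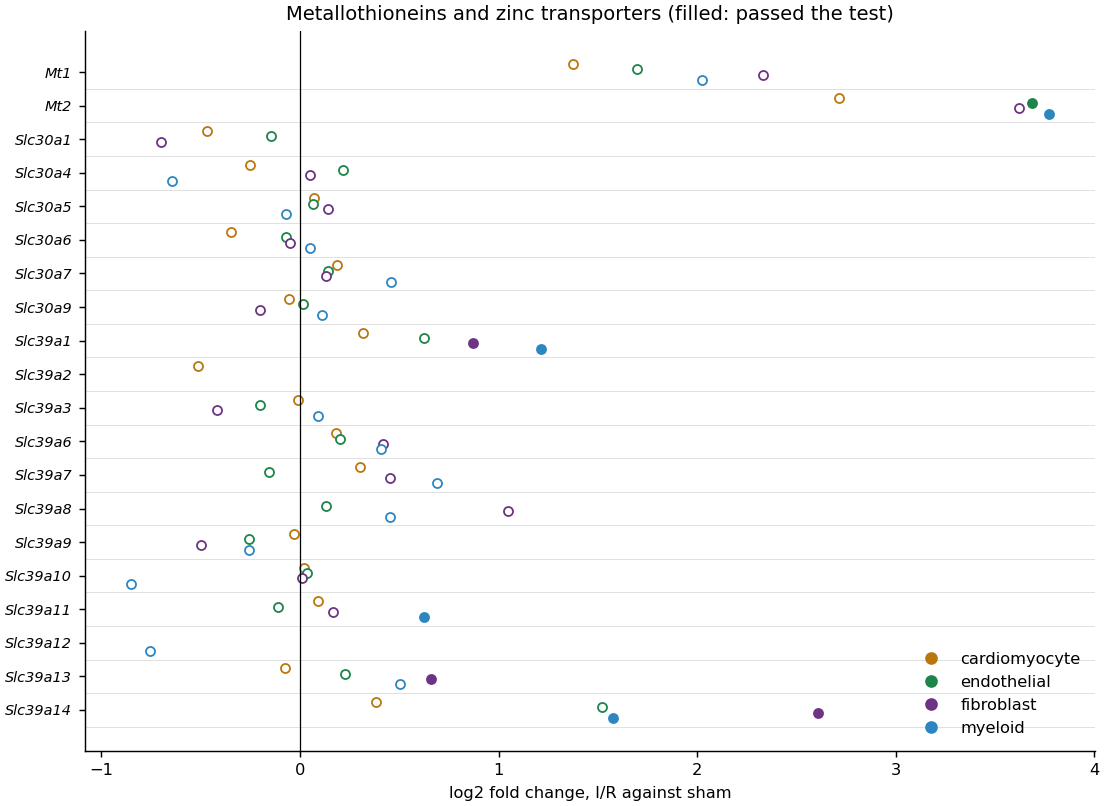
Log2 fold change of I/R against sham (x axis) for each tested metallothionein, SLC30 and SLC39 gene (y axis) in 4 cell types; filled points passed the limma test. Mt1, Mt2 and Slc39a14 reach farthest to the right, at up to 3.77, though Slc39a14 lies at 0.38 in cardiomyocytes. No SLC30 gene is filled.

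Of 12 genes of glucocorticoid and interleukin-6 signalling, 2 of 11 tested were called higher after I/R in cardiomyocytes, 1 of 11 in endothelial nuclei, 4 of 12 in fibroblasts and, in myeloid nuclei, 3 higher and 1 lower of 11. Of all genes 0.814%, 2.98%, 10.5% and 17.6% were called in these types. Socs3, an inhibitor that interleukin-6 signalling induces, rose in all 4 types, by 1.61 (adjusted p = 0.0177) in endothelial nuclei to 2.85 (adjusted p = 0.0146) in myeloid nuclei by limma. Osmr, a receptor subunit for oncostatin M, rose in cardiomyocytes by 2.04 (adjusted p = 0.0243). Sgk1, a kinase induced by glucocorticoids, rose by 2.02 in myeloid nuclei (adjusted p = 0.00099) and by 1.83 in fibroblasts (adjusted p = 0.0251). Fkbp5, Tsc22d3, Per1 and Zbtb16 were also on the list and were not among those named by size, so Sgk1 does not stand for them. The gene called lower in myeloid nuclei was Nr3c1, the glucocorticoid receptor, at -0.56 (adjusted p = 0.0233), named after its value was seen. Il6 in fibroblasts was counted in 0 UMIs in each sham mouse and was at 23.8, 100.1 and 20.2 CPM in I/R mice. For SBP against sham 0 of 11 genes of the list were called in cardiomyocytes and 0 of 11 in endothelial nuclei. Fibroblasts had 1 of 12 called and myeloid nuclei 1 of 11, both higher. Of all genes 0.132%, 1.91%, 5.31% and 12.7% were called for SBP against sham in the same order of types.

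Genes whose values followed the 4 genes most closely were sought over 36 points, 4 cell types in 9 mice after taking off each type's mean, among 10010 genes. These points share libraries and groups, so the correlations are descriptive. Mt1 was closest to Mt2 (Pearson r = 0.95), the acute-phase gene Serpina3n (0.90) and Lcn2 (0.90), and then to the neutrophil genes S100a9 and S100a8 (0.88 each). Mt2 was closest to Il4ra and Mt1 (0.95 each), Serpina3n (0.93), Il1r2 (0.91) and S100a9 (0.90). Slc39a14 was closest to Vmp1 and Eif6 (0.90 each), Il4ra (0.88), Sdc4 and Mt2 (0.87 each). With T cells included, over 45 points and 1662 genes, only Mt1 was measured well enough, and its closest genes were Pim1 (0.81), Chd7 (0.78), Abi1 (0.78), Zmiz1 (0.76) and Stat3 (0.75). Slc30a1 failed the filter in myeloid nuclei and was not compared.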

How the data were processed

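The deposited matrices give natural log (ln) values per gene and nucleus, ln(1 + 10000 × UMIs / total), made by the authors. Per the labels the submitters' processing notes name Cell Ranger 4.0, STAR, Seurat 3.2.0 and GRCm38, whereas the study's methods name other versions; the deposited nuclei are fewer than the study counts, and each has at least 405 genes. UMIs were recovered from these values (over 99.99% within 0.1 of a whole number), which gives 1540 to 2031 median UMIs per nucleus.

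Scrublet in scanpy 1.11.5 marked 85 nuclei (0.173%), too few to call it working, and 49086 nuclei were kept; removing 2168 top-scoring nuclei was an alternative. Leiden clusters (resolution 0.3) were named from markers by their excess over the median cluster, because free cardiomyocyte RNA was in all clusters; this rule was set after seeing the data. A cluster of 701 nuclei led by Btla, Ighd and Pax5 stayed unnamed.

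UMIs were summed per mouse and type (at least 20 nuclei in every mouse), TMM-scaled, and tested as log2(CPM + 1) with limma 3.58.1 (trend, robust) in R 4.3.3 over all genes that had 15 UMIs in all and, in 3 mice, at least the CPM to which 10 UMIs amount at the median depth. A gene was called at an adjusted p of at most 0.05 and a log2 change over 0.25. The study used a count test; here limma was applied to log values of the recovered UMIs, and no count model was fitted. Levels between types, ratios and shares used exact permutation tests. On simulated data for I/R against sham, 193 of 200 changes of 2 log2 units in fibroblasts and 189 of 200 in cardiomyocytes were recovered, with 10 and 6 false calls among 13140 and 12764 genes. The simulated spread between mice was a fixed low setting, the same for all genes and not taken from the data. Mt1 in fibroblasts of I/R mice varied more, at 413 CPM ± 271 (SD, n = 3), and its change of 2.33 was not called. The recovery therefore does not give the power for genes that vary so much.

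The mice are separate animals. The 4 genes and all lists were chosen with earlier results of these data known. Named genes were the 4 genes, from each list up to 4 others called in I/R against sham by size, and the 5 genes closest in pattern; the version over 4 types was added after seeing the data. Intervals are for the difference between group means. They rest on the spread between mice, taken over the 3 groups together and moderated over genes. Alternatives were other scaling, filter, pseudocount, samples, block, weights, doublets, clusters and leaving out each mouse.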

Additional observations from a re-analysis of the deposited data

Results flagged for a closer look

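The change of Slc39a14 differed between cell types by a test of the difference itself, within mice, on the log2 scale (limma, adjusted over all genes). For I/R against sham, cardiomyocyte minus fibroblast was -2.23 (adjusted p = 0.00998), endothelial minus fibroblast was -1.08 (adjusted p = 0.0443) and fibroblast minus myeloid was 1.03 (adjusted p = 0.0315). For SBP against sham, cardiomyocyte minus fibroblast was -1.60 (adjusted p = 0.0361) and endothelial minus fibroblast was -1.23 (adjusted p = 0.0358). Both contrasts share the sham mice. The first of these passed in 12 of 12 alternatives, and the others in 2, 5, 5 and 2 of 12 in the order given. None of the 12 changed the clusters or the naming of cell types. The Tnc-led fibroblast cluster, in which Slc39a14 was highest, was nearly absent from sham hearts, and its part in these differences was not tested.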

How the results depend on the processing

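The number of calls over the 4 genes depended on the setting. For I/R against sham the 5 calls became 1 with the replicate block, 2 with voom weights, 0 with the mean of the deposited ln values and 1 to 11 when a mouse was left out, the 11 without I/R replicate 1. The 3 of these in fibroblasts and myeloid nuclei became 0 with only the clusters present in every mouse. With marker scores 4 calls were made, but 3 of the 5 were lost, Mt2 in endothelial nuclei (3.49, adjusted p = 0.0553) and Mt2 and Slc39a14 in myeloid nuclei (3.46 and 1.59, adjusted p = 0.0669 and 0.0579), and the 2 gained were Mt2 and Slc39a14 in T cells (2.96 and 1.70, adjusted p = 0.0316 and 0.0101), which were below the filter when cell types came from clusters. For SBP against sham the 1 call became 2 with total UMIs only, 5 with only the 2 groups compared, 0 with the replicate block, 0 with the mean of ln values, 3 with top-scoring doublets removed, 2 with marker scores and 0 to 4 when a mouse was left out, and the 1 call in fibroblasts became 0 with only the clusters present in every mouse. For SBP against I/R it was 0 under every alternative run. After I/R, Mt2 passed in 10 of 21 alternatives in endothelial nuclei, 13 of 22 in myeloid nuclei and 16 of 21 over all nuclei, Slc39a14 in 8 of 22 in myeloid nuclei and 20 of 22 in fibroblasts. For SBP against sham Slc39a14 in fibroblasts passed in 12 of 22 and was lost without sham 2, sham 3, I/R 3 or an SBP mouse (1.70 to 2.00, adjusted p = 0.0501 to 0.0839).

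Differences between types gave 3 calls for I/R against sham, 1 with the replicate block and 1 to 3 without a mouse, and 2 for SBP against sham, 4 with total UMIs only, 1 with the replicate block and 0 to 3 without a mouse. The 4 of 16 neighbouring pairs past the test became 10 by mean UMIs per nucleus and 0 with marker scores, and the order of the 16 pairs was kept in 9 by mean UMIs per nucleus and 10 in sham mice only. Of 16 comparisons of shares between SBP and I/R, those without overlap went from 2 (Slc39a14 in endothelial nuclei, Slc30a1 in cardiomyocytes) to 1 thinned to 500 UMIs (Slc30a1 in cardiomyocytes) and to 1 without thinning (Slc39a14 in fibroblasts). With no group effect 3 against 3 mice separate with a probability of 0.1. The share over all genes was not computed, so these counts were not read as a result. Same-numbered mice of different groups did not deviate together (r from -0.40 to 0.29 over all nuclei), so the numbers were not taken to pair mice.

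Some values that had not passed changed sign, as did 1 level difference that had. Slc30a1 in fibroblasts, SBP against I/R, was -0.0014 by the mean of ln values and -0.014 with the clusters present in every mouse, and its level in fibroblasts minus cardiomyocytes, which had passed, was -0.12 per nucleus. Level differences of neighbours that had not passed also turned per nucleus, to -0.38 for Mt1 in T cells minus endothelial nuclei, -0.33 for Mt2 in the same pair, -1.66 for Mt2 in endothelial nuclei minus cardiomyocytes (now past the test), -0.90 for Slc39a14 in fibroblasts minus cardiomyocytes, -0.11 for Slc39a14 in endothelial minus myeloid nuclei and -0.026 for Slc30a1 in myeloid nuclei minus fibroblasts. With marker scores they turned to -0.26 for Mt1 and -0.13 for Slc39a14 in myeloid nuclei minus T cells, -0.18 for Mt2 in cardiomyocytes minus myeloid nuclei, -0.025 for Slc39a14 in endothelial minus myeloid nuclei and -0.30 for Slc30a1 in cardiomyocytes minus T cells. When a mouse was left out, SBP against I/R ran from -0.084 to 0.38 for this gene in fibroblasts and from -0.11 to 0.0033 over all nuclei, from -0.21 to 0.013 for Slc39a14 in cardiomyocytes and -0.47 to 0.49 in myeloid nuclei, from -1.53 to 0.014 for Mt2 in endothelial and -1.29 to 0.27 in myeloid nuclei, and from -0.98 to 0.25 for Mt1 in myeloid nuclei. Slc30a1 in endothelial nuclei, I/R against sham, ran from -0.36 to 0.067, and Slc39a14 in cardiomyocytes, SBP against sham, from -0.055 to 0.48. The causes were not tested. With total UMIs only, genes called over all nuclei split into 1230 higher and 492 lower, against 952 and 775, for I/R against sham, and 249 and 119, against 231 and 246, for SBP against sham. Low UMI counts limit Slc30a1 everywhere and Mt2 in sham hearts.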

Other observations

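At a finer clustering 199 nuclei formed a neutrophil cluster led by Il1r2, Retnlg and S100a9, with 0, 0 and 1 nuclei in sham mice 1 to 3, 21, 83 and 48 in I/R mice and 15, 18 and 13 in SBP mice. In the I/R nuclei of this cluster Mt1 was at 418 CPM and Mt2 at 212 CPM, on 63 and 32 UMIs, and Slc39a14 at 113 CPM on 17 UMIs. An endothelial cluster led by Mannr and Sema3g, whose leading genes include the arterial genes Gja5 and Sox17, had Mt2 at 2.96 CPM in sham hearts on 1 UMI, 162 CPM in I/R hearts on 73 UMIs and 141 CPM in SBP hearts on 61 UMIs. These are pooled values with no test.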
